A study of Mus musculus with 12 samples.

Results

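Regulatory T cells (Tregs) that had formed from transferred CD4 T cells were compared with resident thymus-type Tregs of the host by ATAC-seq, which marks open chromatin by where a transposase can cut. All animals were Balb/c. The converted cells (donor Treg) came from donor T cells carrying 6.5TCR, a transgenic receptor for influenza hemagglutinin (HA), that had been put into Aire-HA hosts and were sorted from bone marrow on day 14 as CD3 and CD4 T cells that were CD45.1-CD45.2+, CD25+ and LAP+. The resident cells (host tTreg) were T cells of the host with the CD45.1+CD45.2+ marker pair that were CD4+, CD25+, CTLA4+ and Nrp1+. LAP is the latency peptide cut from the TGF-beta precursor, and Nrp1 is a surface protein used to tell thymus-derived from peripherally formed Tregs. The sources used here do not give the construct behind Aire-HA or the number of animals behind a library. Each group had 2 libraries, so 4 of the 12 libraries of the series entered the comparison. The other 8 were unconverted donor cells (donor Tconv), host conventional cells (host Tconv), Nrp1-negative host Tregs (host pTreg) and Tregs induced in culture (iTreg), also 2 each.

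A region was a stretch covered by peaks that share 1 bp or more across the 4 libraries. A region was called differing when both donor Treg libraries had a peak there and no host tTreg library did, or the reverse. Of 40517 merged regions, 2064 differed, 1462 in the donor Treg direction and 602 in the host tTreg direction. These are 5.09%, 3.61% and 1.49% of all regions, the background against which counts for genes are read. With 2 libraries against 2, an exact permutation test cannot give a p below 0.333, so no region has a p.

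Tregs depend on the transcription factor Foxp3 and share a core of receptors such as CD25, CTLA4 and GITR. Those made in the thymus are known for high Helios (Ikzf2) and Nrp1, while peripheral conversion of naive cells needs TGF-beta and antigen. Naive T cells keep a program of Tcf7, Lef1, Satb1, Bach2 and Foxp1 that is wound down as cells become effector cells.

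The peak lists held 33350.5 ± 1580 peaks in donor Treg (SD, n = 2) and 32111.5 ± 5260 in host tTreg (SD, n = 2), with median widths of 465 to 506 bp. Host tTreg replicate 1 stood apart with the shortest list, covering 16.9 Mb against 21.7 to 23.3 Mb in the others. Without it, the counts became 1747 in the donor Treg direction and 4196 in the host tTreg direction; without host tTreg replicate 2 they were 4588 and 920. The run codes in the library names differ between the groups (BW13 for donor Treg, DR31 for both host Treg groups), so run and group cannot be told apart, and read depth is unknown. Foxp3 had 1 region open in all 4 libraries, within the gene coordinates (chrX:7582796-7584970). It spanned 1422 and 2175 bp in donor Treg and 1102 and 2113 bp in host tTreg. Donor Tconv had 391 and 431 bp and host Tconv no peak. Donor Treg and host tTreg thus both carried the defining Treg locus in open form. Some defining markers of other lineages had no region in these 4 libraries: Cd79a and Cd79b of B cells, Csf1r, Lyz2 and S100a8 of myeloid cells, and Cd8a. Other genes of the same lists did have regions. These were 8 of 12 B cell genes (20 regions), 11 of 20 myeloid genes (27 regions) and 5 of 6 CD8 T cell genes (20 regions). Purity of the sorts was not tested.

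The sequences where the contrast reached a gene start are shown first. They are RefSeq promoters (GRCm38.p6, the assembly behind mm10), from 250 bases before to 50 after a gene start, with motif matches in capitals. Lef1 and Lilr4b were the named genes whose differing region covered a start and whose promoter held a match; Tcf7, where peaks in both groups differed in width, was added after its values were seen. At Lef1 (chr3:131156044-131156343, plus strand, an internal start) the capitals mark GGAAAA, the NFAT core, and TTATCT, the reverse of the GATA motif AGATAA. At Tcf7 (chr11:52282546-52282845, minus strand, an internal start) they mark the reverse of GGAAAA, the reverse of the ETS core CCGGAA, and the reverse of the forkhead motif TGTTTAC. Another Tcf7 promoter in the same region (chr11:52282965-52283264) held no match and is not printed. At Lilr4b (chr10:51480362-51480661, plus strand) they mark TGTTTAC.

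Lef1: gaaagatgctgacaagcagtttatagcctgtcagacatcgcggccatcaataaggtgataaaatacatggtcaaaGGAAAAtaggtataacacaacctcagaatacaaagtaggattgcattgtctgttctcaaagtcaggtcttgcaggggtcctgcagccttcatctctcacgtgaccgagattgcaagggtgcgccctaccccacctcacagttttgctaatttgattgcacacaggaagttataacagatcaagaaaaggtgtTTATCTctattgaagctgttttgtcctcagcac
Tcf7: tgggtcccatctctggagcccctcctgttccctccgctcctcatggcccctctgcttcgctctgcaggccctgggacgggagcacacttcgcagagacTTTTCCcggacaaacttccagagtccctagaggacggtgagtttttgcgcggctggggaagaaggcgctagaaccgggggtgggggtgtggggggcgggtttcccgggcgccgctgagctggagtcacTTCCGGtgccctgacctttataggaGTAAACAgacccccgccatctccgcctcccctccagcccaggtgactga
Lilr4b: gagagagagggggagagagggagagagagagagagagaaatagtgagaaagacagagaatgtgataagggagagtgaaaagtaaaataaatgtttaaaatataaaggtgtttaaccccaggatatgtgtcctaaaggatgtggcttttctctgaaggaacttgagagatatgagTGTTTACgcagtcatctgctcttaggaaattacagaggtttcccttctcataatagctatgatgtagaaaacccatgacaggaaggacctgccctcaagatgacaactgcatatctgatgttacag

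Searched on both strands, GGAAAA was in 23.4% of the 32851 promoters of the table, CCGGAA in 14.9%, AGATAA in 11.2% and TGTTTAC in 3.65%. These shares make single matches common, and a match describes letters only. Donor Treg only regions covered 83 promoters and host tTreg only regions 36, against 11201 in regions open in all 4 libraries. Most of the contrast therefore lay away from gene starts. Only 9.3% of donor Treg only and 8.31% of host tTreg only regions had their midpoint within 1 kb of a gene start, against 34.6% of the 25159 regions open in all 4 libraries. The share was 24.8% of every merged region. It was 8.58% of regions of any other pattern, which neither differed nor were open in all 4, so this trait is not particular to the differing regions.

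The differing regions were narrow. The median peak width was 229 bp in donor Treg only regions, 272 bp in host tTreg only regions and 631 bp in regions open in all 4. Peaks under 300 bp made up 73.6%, 57.6% and 13.6% of these. Regions of any other pattern were as narrow as donor Treg only regions, at a median of 229 bp with 74.6% under 300 bp. Because list lengths differ, the comparison was repeated with every library cut to its widest peaks, as many as the shortest list holds. The narrowest peaks kept were 212 and 240 bp in donor Treg and 150 and 249 bp in host tTreg. A peak cut in this way counted as absent, so a region open in all 4 libraries with all peaks could become differing. Then 1914 regions differed (5.67% of 33765), with 1082 donor Treg only regions (3.2%) and 832 host tTreg only regions (2.46%). The donor Treg share of the differing regions thus went from 70.8% to 56.5% once list length was equal. Of the donor Treg only regions, 504 were called in both settings, 34.5% of those with all peaks and 46.6% of those with equal lengths. Of the host tTreg only regions, 429 were, 71.3% and 51.6% of their lists. Below, counts are given as donor Treg only and host tTreg only, with all peaks and then with equal lengths. A region belongs to the gene whose body holds its midpoint, else to the nearest gene end within 50 kb. Exons and introns were not told apart.

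Genes of the naive and quiescence list differed more often in the direction of the converted cells. Of its 276 regions, 29 were donor Treg only and 6 host tTreg only, 10.5% and 2.17%. With equal lengths the counts were 29 and 4 of 242 regions, 12% and 1.65%. By gene, 10 of the 20 had more donor Treg only regions and 2 more host tTreg only regions; the median net was 0.5 regions per gene, beside 0 over all genes with a region. Donor Treg libraries had a peak in 212 and 240 of the list's regions, host tTreg libraries in 170 and 212. As shares, these are 76.8%, 87.0%, 61.6% and 76.8%, beside 78.7%, 84.4%, 67.8% and 87.4% of every merged region in the same libraries. Host tTreg libraries were lower on this list than on all regions, and donor Treg libraries were close to their general level. These shares use the same peaks that made the calls, so they describe the counts and add no separate support.

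Lef1, a TCF family transcription factor of naive T cells, had 4 donor Treg only and 0 host tTreg only regions among 12, in both settings. The region over its internal start (chr3:131155859-131156955) was covered over 774 and 1097 bp in donor Treg and had no peak in either host tTreg library. It also had peaks of 1015 and 571 bp in host pTreg and of 1097 bp in both donor Tconv libraries. A second region, 43.6 kb past the nearest annotated start (chr3:131199600-131200263), was covered over 441 and 564 bp in donor Treg, 294 and 269 bp in host pTreg and 664 bp in each donor Tconv, host Tconv and iTreg library. Without peaks under 300 bp, Lef1 had 1 and 0. At the 5 Lef1 regions open in all 4 libraries no width difference passed the test; the main start region spanned 2554 and 2782 bp against 920 and 2734 bp (adjusted p = 0.681, limma). The locus was therefore open in both groups, and the contrast lay in 4 of its regions.

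Satb1, a chromatin organiser, likewise had 4 and 0 regions in both settings, among 11 with all peaks. Of these, 3 lay 22.1 to 43.3 kb upstream of its nearest annotated start; the widest (chr17:51876396-51876849) was covered over 385 and 433 bp in donor Treg and 300 and 242 bp in host pTreg. All 4 Satb1 regions had peaks in both donor Tconv, both host Tconv and both iTreg libraries. Tgfbr3, which encodes the TGF-beta co-receptor betaglycan, had 5 and 0 regions of 11, then 3 and 0. Each of its 5 regions was narrow, at 150 to 272 bp in donor Treg, and each had a peak in host pTreg replicate 1, but only 1 had one in host pTreg replicate 2. Tob1, an antiproliferative gene of quiescent T cells, had 3 and 0, then 2 and 0. Dapl1 had 2 and 0 in both settings. Without peaks under 300 bp, Satb1 had 3 and 0, Tgfbr3 1 and 0 and Tob1 none, while the whole naive list had 19 and 3.

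Foxp1, a forkhead factor that keeps T cells quiescent, had 4 and 1 regions, then 4 and 0. Its widest donor Treg only region (chr6:99428654-99429332) spanned 497 and 674 bp. Another (chr6:99328668-99329031, 279 and 364 bp) had no peak in any donor Tconv, host Tconv or iTreg library and 280 bp in host pTreg replicate 1. Bach2, a repressor of effector genes, went in both directions, with 3 and 2 regions, then 4 and 1. Its widest donor Treg only region (chr4:32247778-32249596) covered 521 and 1819 bp and was also open in all 4 conventional libraries and in neither host pTreg library. Its host tTreg only region at chr4:32401445-32401846 covered 226 and 402 bp, and 402 and 349 bp in host pTreg, with no peak in the other 8 libraries. Ccr7, the lymph node homing receptor, went against the list with 0 and 1 region in both settings. Il7r had none in either direction.

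**Figure D1:**
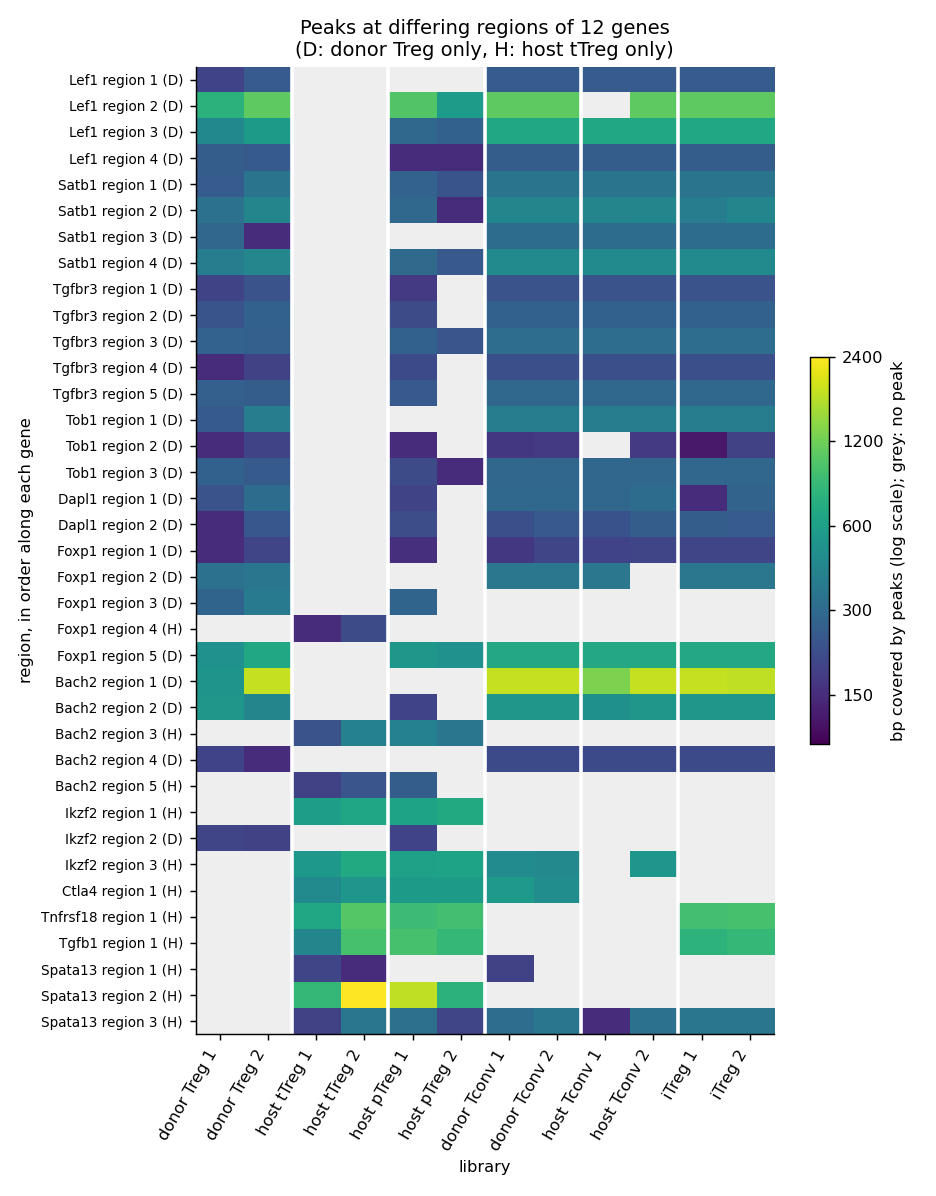
Base pairs covered by peaks in each of the 12 libraries (columns, log colour scale, grey for no peak) at every differing region of 12 named genes (rows, in order along each gene; D for donor Treg only, H for host tTreg only). Most D regions of Lef1, Satb1, Tgfbr3 and Tob1 are also filled in the conventional and iTreg columns, and most H regions of Ikzf2, Ctla4, Tnfrsf18 and Tgfb1 in both host pTreg columns.

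TGF-beta genes had 10 and 2 of 135 regions (7.41% and 1.48%), then 7 and 2 of 114 (6.14% and 1.75%), and 4 and 2 without peaks under 300 bp. Their donor Treg share was above that of all regions in the first 2 settings, while the width measure given further on went the other way. Tgfbr3, which is on both lists, gave 5 of the first 10. Tgfbr2, the signalling receptor subunit that binds the ligand, had 2 and 0 in both settings. Its region before the nearest annotated start (chr9:116187403-116187886) covered 391 and 484 bp in donor Treg and had peaks in all 4 conventional libraries but in no host pTreg or iTreg library. Tgfbr1 and Ski had 1 and 0 each, and Smad3, a signal transducer, and Itgb8, an activator of latent TGF-beta, had none. The ligand gene Tgfb1 went the other way, with 0 and 1 in both settings. That region (chr7:25707335-25708286), 20.8 kb past the gene start, was covered over 430 and 952 bp in host tTreg and 951 and 830 bp in host pTreg. It had 784 and 834 bp in iTreg and no peak in any donor Treg or conventional library. Since LAP is made from Tgfb1 and was a sorting marker of donor Treg and iTreg, this region is not independent of the sort.

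The Treg core list had 5 and 6 differing regions of 170, 2.94% and 3.53%, so its host tTreg share was above the 1.49% of all regions and its donor Treg share below 3.61%. With equal lengths it had 3 and 11 of 156, 1.92% and 7.05%. Without peaks under 300 bp it had 5 and 5. Ikzf2, which encodes Helios, had 1 and 2, then 0 and 2. Its host tTreg only region at chr1:69550177-69550863 was covered over 597 and 655 bp in host tTreg and 629 and 687 bp in host pTreg, with no peak in any other library. Its second such region (chr1:69653245-69653933) covered 547 and 689 bp, 620 and 631 bp in host pTreg and 464 and 448 bp in donor Tconv. The first Ikzf2 region was thus found in all 4 host Treg libraries and nowhere else. Of the 28 Ikzf2 regions, 15 were open in all 4 compared libraries, and none of these differed in width past the threshold.

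Tnfrsf18, which encodes GITR, had 0 and 1 in both settings; that region (chr4:156030421-156031457) covered 669 and 1037 bp in host tTreg, 879 and 930 bp in host pTreg and 927 and 950 bp in iTreg. Ctla4 had 0 and 1, at chr1:60902441-60903005, 6.3 kb before its start, with 456 and 534 bp. Both host pTreg and both donor Tconv libraries had a peak there too. CTLA4 was a marker of the host Treg sort, so that region is not independent of it. Il2ra, which encodes CD25, had 1 and 0 in both settings. The region, about 15 kb past the gene start (chr2:11657371-11658179), covered 688 and 702 bp in donor Treg, had peaks in all 4 conventional libraries and in host pTreg replicate 2, and none in iTreg. Both groups were sorted as CD25 positive. Lrrc32, which encodes GARP, the anchor of latent TGF-beta on Tregs, had 1 and 0, then 0 and 0. Foxp3, Nrp1 and Ikzf4 had no differing region with all peaks, and Nrp1 and Ikzf4 had 0 and 1 each with equal lengths. With all peaks, all 4 Ikzf4 regions were open in all 4 libraries, so its donor Treg peaks were cut rather than missing.

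Among helper and effector programs, Th1 and cytotoxic genes had 4 and 0 of 87 regions (4.6% donor Treg only, near the 3.61% of all regions), then 2 and 3 of 77; Il12rb2, a subunit of the IL-12 receptor, gave 2 of the first 4. Th2 genes had 0 and 0 of 43, then 0 and 0 of 40, and Th17 genes 0 and 0 of 59, then 1 and 0 of 45. Effector and tissue Treg genes had 2 and 2 of 162, then 0 and 2 of 144. Tbx21, Gata3, Maf, Lag3 and Pdcd1 had none in either direction with all peaks. Tfh genes had 4 and 1 of 68 (5.88% and 1.47%), then 1 and 2 of 63. Cd40lg, the CD40 ligand of helper T cells, accounted for 3 of these and lies on chromosome X. Bone marrow homing genes had 7 and 0 of 92 regions, 7.61% donor Treg only, then 4 and 1 of 82 (4.88%), above the shares of all regions. Itga4, the alpha 4 integrin subunit that holds cells in marrow, had 2 and 0, then 1 and 0, and Cxcr4, the receptor for the marrow chemokine Cxcl12, had none. Its start region spanned 2828 and 3000 bp in donor Treg and 2732 and 3050 bp in host tTreg.

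IL-2 and STAT5 genes had 4 and 1 of 87, then of 81, and T cell receptor signalling genes 2 and 2 of 191, then 6 and 2 of 172. Inhibitory receptor genes had 4 and 4 of 150, then 2 and 4 of 135, and pan-T genes 6 and 6 of 174, then 3 and 6 of 159. NK cell genes leaned to donor Treg with 5 and 0 of 20 regions (25.0% donor Treg only), then 2 and 0 of 16 (12.5%). These shares were above those of the naive list, on far fewer regions. The genes were Il2rb, Klrb1c, Klrk1, Prf1 and Tyrobp. The list's peaks numbered 17 and 19 in donor Treg and 10 and 14 in host tTreg, while the defining NK genes Ncr1, Klra8, Klre1 and Klri2 had no region. Their part in the other results was not tested. Myeloid genes had 1 and 3 of 27 (3.7% and 11.1%), then 0 and 1 of 26 (3.85% host tTreg only). They numbered 19 and 20 peaks in donor Treg and 21 and 25 in host tTreg, and 9 of the 20 genes had no region. B cell genes had 0 and 1 and plasma cell genes 1 and 1, each 1 and 1 or fewer with equal lengths. Stem and progenitor genes had 1 and 2, then 1 and 1, and CD8 T cell genes 1 and 0 in both settings. Erythroid genes had none in either direction.

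**Figure D2:**
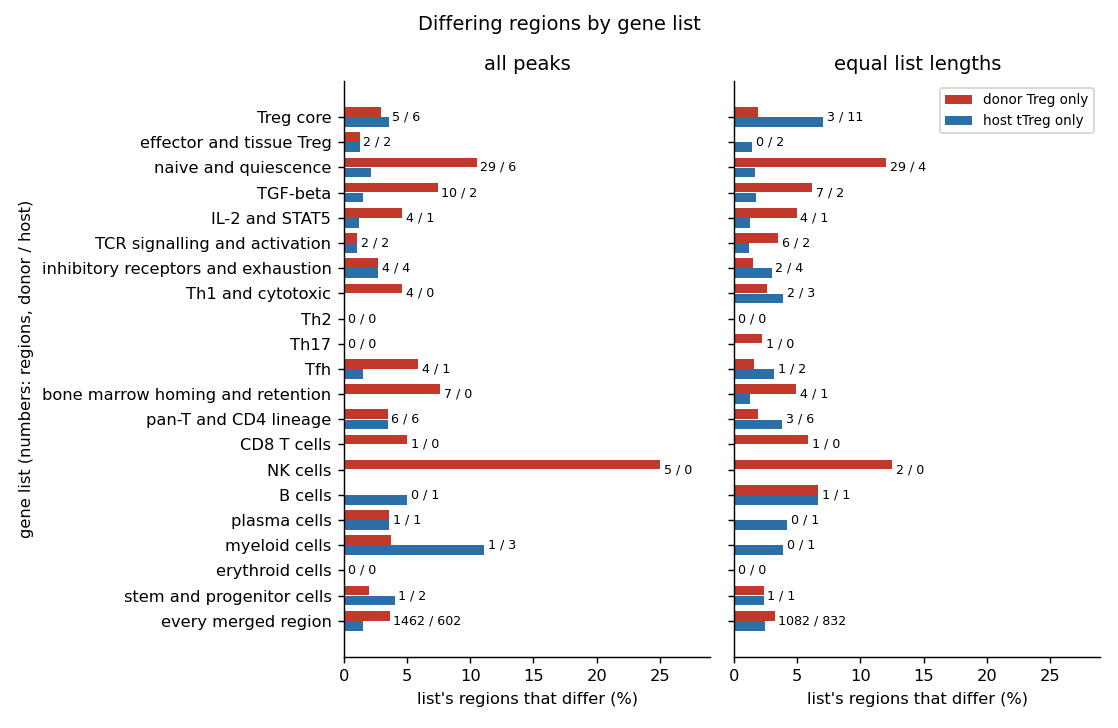
Share of each gene list's regions that were donor Treg only (red) or host tTreg only (blue), in percent, with all peaks (left) and with equal list lengths (right); numbers are the region counts, and the lowest row is every merged region. Naive and quiescence genes keep a donor Treg share above 10% in both panels, as do NK cell genes, with 20 and 16 regions. Treg core genes have the larger share on the host tTreg side in both, as do myeloid genes, with 27 and 26 regions.

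Outside the lists, Zfand3 and Lpp each had 5 and 0 regions with all peaks. Zfand3 had 4 and 0 of 14 with equal lengths, and Lpp 1 and 0 of 18, so most of the Lpp regions were narrow. Gtf2i, a general transcription factor gene, had 3 and 0, then 4 and 0; its region at chr5:134253342-134254104 covered 524 and 728 bp in donor Treg, 189 to 272 bp in the 4 conventional libraries and none in host pTreg or iTreg. Tet1, a DNA demethylase, had 2 and 0, then 3 and 0. One of its regions (chr10:62886348-62886956, 609 and 451 bp) lay 0.672 kb from the gene start. Ryr2, a calcium release channel, had 3 and 0 of 4 regions, then 2 and 0. Its region over the gene start (chr13:12106842-12107067) covered 226 and 199 bp in donor Treg and was absent from all conventional and host pTreg libraries, while iTreg had 150 and 223 bp. Dazl, Dyrk2 and Trp53rkb had 3 and 0 each, then 2, 1 and 1, all without a host tTreg only region.

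In the host tTreg direction, Spata13, a guanine nucleotide exchange factor gene, led with 0 and 3 regions of 12, then 0 and 2. Its widest (chr14:60710485-60712865), in the gene body and 21.2 kb before the nearest annotated start, covered 834 and 2381 bp in host tTreg and 1768 and 769 bp in host pTreg, with no peak in the other 8 libraries. Like the first Ikzf2 region, it separated the 4 host Treg libraries from all others. Lilr4b, an immunoglobulin-like receptor gene, had 0 and 2 in both settings. The region at its start (chr10:51480390-51480674) covered 150 and 285 bp in host tTreg. Ctsh, Rac2, Sox4, Unc79 and Gm8369 also had 0 and 2 in both settings, and Lyn 0 and 2, then 0 and 0. Celf2, an RNA-binding protein gene, had 0 and 2, then 0 and 4, and Hspa12a 0 and 2, then 0 and 3. Inpp4b had 0 and 2, then 1 and 4. Akap13 and Mgmt had none with all peaks and 0 and 3 with equal lengths. With all peaks, 3 of the 4 Mgmt regions were open in all 4 libraries.

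The 8 libraries outside the rule placed the differing regions among the other T cells. Of the 1462 donor Treg only regions, 1225 (83.8%) had a peak in both donor Tconv libraries, close to the 82.7% of every merged region. Both host pTreg libraries had a peak in 382 of them (26.1%), against 74.8% of every merged region, and neither had one in 511 (35.0%, against 12.3%). Host pTreg replicates 1 and 2 differed here, at 61.4% and 29.8%, where every merged region gave 85.8% and 76.7%. A peak in none of the other 8 libraries was found for 48 donor Treg only regions (3.28%, against 2.85% of every merged region). Donor Treg only regions were thus near the general share in donor Tconv and below it in host pTreg. Without peaks under 300 bp, the share with a peak in both host pTreg libraries was 72.0%, against 91.3% of every merged region in that setting. Regions that neither differed nor were open in all 4 libraries (any other pattern) had a median peak width of 229 bp with all peaks. Of these, 61.2% had a peak in both donor Tconv libraries, 37.3% in both host pTreg libraries and 32.4% in neither host pTreg library. Beside them, donor Treg only regions were higher in donor Tconv and lower in host pTreg.

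The host tTreg only regions were below the share of every merged region in all 4 other groups, and least so in host pTreg. Both host pTreg libraries had a peak in 376 of 602 (62.5%, against 74.8%). Both donor Tconv libraries had one in 234 (38.9%, against 82.7%), and both host Tconv libraries in 25.9%, against 73.7%. Neither donor Tconv library had one in 287 (47.7%, against 12.4% of every merged region). Both iTreg libraries had a peak in 53.8%, against 83.2%. Every merged region includes the wide regions open in all 4 libraries. Beside regions of any other pattern, host tTreg only regions were above in host pTreg (62.5%, against 37.3% with a peak in both libraries). They were below in donor Tconv (38.9%, against 61.2%), host Tconv (25.9%, against 44.6%) and iTreg (53.8%, against 67.0%). With equal lengths, 48.9% of donor Treg only and 75.0% of host tTreg only regions had a peak in both host pTreg libraries, against 85.7% of every merged region. For donor Tconv the shares were 89.3% and 44.4%, against 87.6%. The list lengths behind these shares differ, from 32885 peaks in host pTreg replicate 2 to 63207 in iTreg replicate 2, and host pTreg shares its run code with host tTreg, as donor Tconv and host Tconv do with donor Treg.

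**Figure D3:**
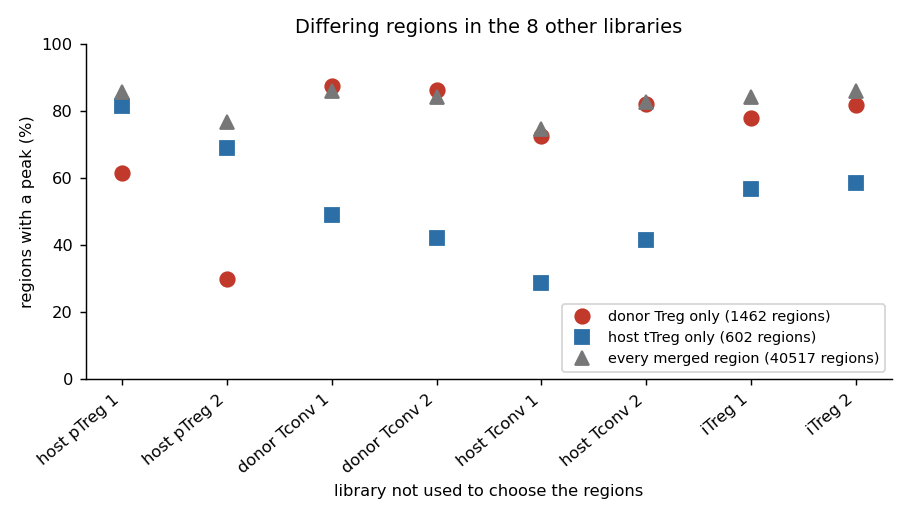
Share of donor Treg only regions (red), host tTreg only regions (blue) and every merged region (grey) with a peak in each of the 8 libraries that did not choose the regions, in percent. Donor Treg only regions sit at the level of every merged region in the conventional libraries (72.7% to 87.6%) and below it in host pTreg (61.4% and 29.8%); host tTreg only regions sit below it in every library, by the least in host pTreg (81.6% and 69.1%) and farthest in the conventional libraries (28.7% to 49.0%).

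In the 25159 regions open in all 4 libraries, which the presence rule does not select, the base pairs covered by peaks were compared with limma on the log2 scale, each library centred on its median. At an adjusted p under 0.05, 6 regions were wider in donor Treg (0.0238%) and 4 in host tTreg (0.0159%); 2454 had an unadjusted p under 0.05. Without centring none passed, and the median log2 difference of all regions was 0.13 rather than -0.03.

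The lowest adjusted p belonged to the start of Tcf7, the gene of TCF1, a factor of naive and memory-like T cells. The region (chr11:52280887-52283661) was covered over 2568 and 2775 bp in donor Treg and 362 and 389 bp in host tTreg. All 4 conventional libraries covered all 2775 bp, host pTreg 1465 and 331 bp, and neither iTreg library had a peak. The log2 difference was 2.67 (SE 0.178, adjusted p = 0.0157, limma; wider in 2 of 2 donor Treg libraries). Over 10 alternatives it ranged from 2.52 to 2.83, with adjusted p from 1.28e-11 to 0.437; without a host tTreg library it was 0.142 or 0.248. The other 7 Tcf7 regions open in all 4 libraries did not pass, including the one in the gene body at chr11:52273154-52276155, with 2941 and 2464 bp against 757 and 2139 bp (adjusted p = 0.41, limma). The start of Tcf7 was thus broadly covered in converted and conventional cells and narrowly in host tTreg.

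The other 5 regions wider in donor Treg lay at Fgf13, Hes7, Ppm1e and Ddc, and on chromosome 16 away from any gene within the distance used. At Hes7, a repressor of the Notch pathway, donor Treg covered 4270 and 4514 bp and host tTreg 975 and 1303 bp. That region lay outside gene bodies, 3.73 kb from the nearest gene start. Replicates of other groups differed there, with 4514 and 1221 bp in host pTreg and 1299 and 4514 bp in host Tconv. The 4 wider in host tTreg lay at Cfap410, Lao1, Plaat3 and Casp1, which encodes the inflammatory caspase. At Casp1 the region covered 754 and 955 bp in host tTreg and 266 and 242 bp in donor Treg. At Lao1 and Plaat3 both donor Treg peaks were 150 bp, the narrowest width in the files, so their size cannot be read further.

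The width measure leaned the same way as peak presence on the naive list. Of its 149 regions open in all 4 libraries, 101 (67.8%) were wider in donor Treg, against 43.9% of all such regions; the median log2 difference was 0.13 beside -0.03. Uncentred, the shares were 91.3% and 76%. Centring moves the difference of every region by the same amount, so the uncentred shares are no separate check of how lists compare. Treg core regions were wider in donor Treg in 35.4% (71.7% uncentred). The naive list stood above the share of all regions and the Treg core list below it, but neither was alone. Pan-T genes (60.9%), IL-2 and STAT5 genes (58.3%) and erythroid genes (75% of 8 regions) were also above it. Effector and tissue Treg (35.3%), Tfh (34.1%), Th17 (28.1%) and plasma cell genes (26.7%), among others, were lower than Treg core. TGF-beta regions were also below the share of all regions, at 36.1% (60.2% uncentred). At some wide naive list regions only host tTreg replicate 1, the shortest list, was narrower. A Bach2 region (chr4:32334641-32337202) spanned 2400 and 2451 bp in donor Treg and 897 and 2562 bp in host tTreg. A Satb1 region (chr17:51831334-51834278) was narrower in both, at 2685 and 2945 bp against 1156 and 2070 bp. List shares without host tTreg replicate 1 were not computed.

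**Figure D4:**
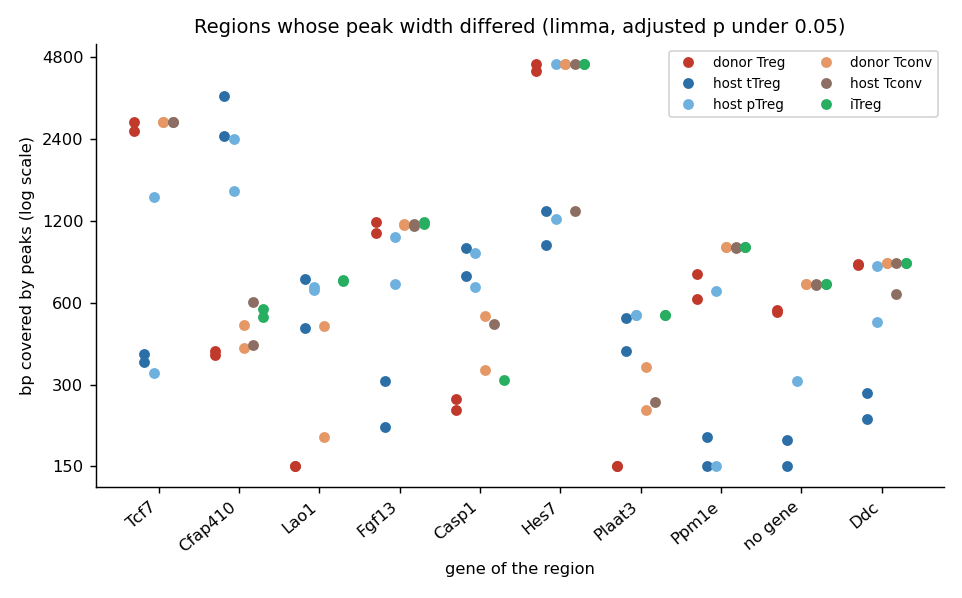
Base pairs covered by peaks (log axis) in each library at the 10 regions whose width differed at an adjusted p under 0.05; each point is 1 library, coloured by group, and libraries without a peak are left out. At Tcf7 the donor Treg and conventional libraries sit between 2568 and 2775 bp and host tTreg at 362 and 389 bp.

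Several stretches of the genome differed between the groups together. Around Aire, the gene named in the host strain, host tTreg libraries had wider or extra peaks over many neighbouring regions. Of the 22 regions within 150 kb of Aire, both host tTreg libraries covered more than both donor Treg libraries in 13, against 5.01% of all regions, and the reverse held in 1. Peaks covered 29271 and 24632 bp in host tTreg, 24047 and 22992 bp in host pTreg, and 10573 and 10552 bp in donor Treg. The 6 conventional and iTreg libraries covered 10188 to 14550 bp. At 150 to 650 kb from Aire, the host tTreg sums (20248 and 26543 bp) overlapped those of donor Treg (25244 and 26321 bp). The stretch was chosen after the values were seen. In windows of 15 neighbouring regions along the genome, the highest number favouring host tTreg was 12, at chr10:77961977-78093096 around Aire, and at most 6 farther than 1 Mb away. It holds Trpm2, Cfap410, Pfkl, Aire, Dnmt3l and Icosl, which encodes the ligand of ICOS.

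Of the host tTreg only regions, 2 lie there, at Lrrc3 (chr10:77901865-77904013, 2088 and 1808 bp) and Trpm2 (chr10:77968528-77970981, 2454 and 1318 bp), as does the wider region of Cfap410 (3433 and 2461 bp against 385 and 399 bp; log2 difference -3.06, SE 0.277, adjusted p = 0.0212, limma). Without the stretch the counts were 1462 and 600. Whether the Aire-HA construct has a part in this was not tested.

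**Figure D5:**
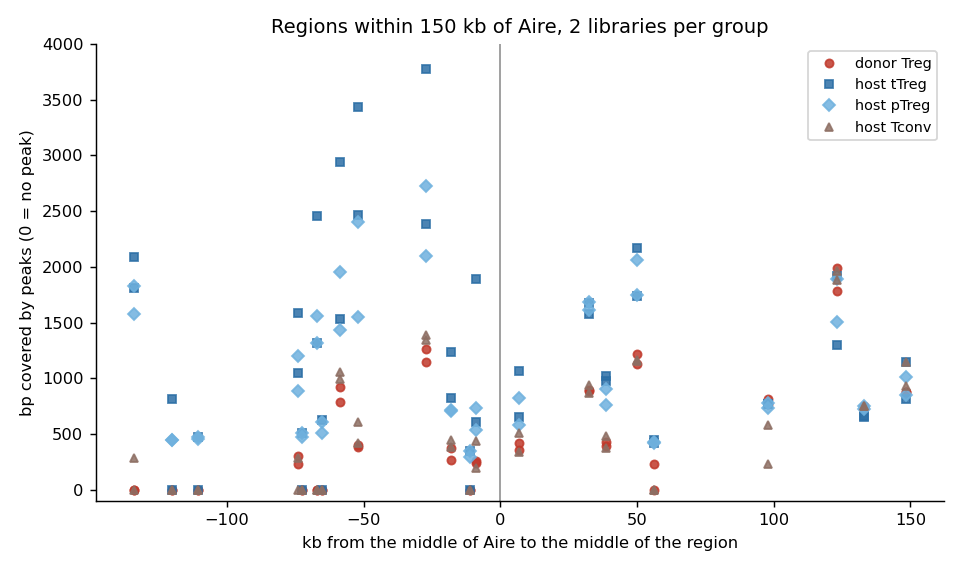
Base pairs covered by peaks in regions within 150 kb of Aire, by distance in kb from the middle of Aire; each point is 1 library of donor Treg (red), host tTreg (dark blue), host pTreg (light blue) or host Tconv (brown), with 0 for no peak. From Lrrc3 to Icosl most host Treg points lie above donor Treg and host Tconv, and in the rightmost 4 regions they do not.

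Sex-linked regions also separated the groups. Of 14 regions on chromosome Y, 3 were host tTreg only, and these covered the starts of Eif2s3y (519 and 581 bp), Uty (494 and 896 bp) and Ddx3y (824 and 1030 bp). Both host pTreg libraries had peaks at the same 3 starts, at 468 to 973 bp, and none of the other 8 libraries did. On chromosome X, the region at Xist (chrX:103481138-103482485) covered 1244 and 1329 bp in donor Treg, 311 and 612 bp in host tTreg, 710 and 841 bp in host pTreg and 1218 to 1346 bp in the other 6 libraries. At Firre, a noncoding RNA locus of the X, both donor Treg libraries covered more than both host tTreg libraries in 14 of 15 regions, against 27.6% of all regions. Its peaks summed to 10800 and 11314 bp in donor Treg, 2347 and 7086 bp in host tTreg, and 7558 and 6824 bp in host pTreg. The lowest sum was that of host tTreg replicate 1, the shortest list. In windows of 15 neighbouring regions, the highest number favouring donor Treg was 14, at chrX:50549827-50612706 over Firre. A window on chromosome 17 reached 13, so Firre stood out little in that measure. The host Treg libraries thus carried Y-linked peaks that the donor Treg libraries lacked. Host Tconv, also labelled as host cells, had none at these 3 starts, so host Treg and host Tconv libraries differ here too, and whether they come from the same animals is not stated in the labels. The labels used here give no sex, and for donor Treg against host tTreg this difference cannot be told apart from the run code. Without chromosomes X and Y the counts were 1430 and 590, and the Cd40lg and Fgf13 regions above are X-linked.

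Donor cells carry a transgenic antigen receptor, and the groups were sorted by CD45 markers, so these loci were also counted. Whether peaks at Tcra or Tcrb reflect the transgene was not tested. At Tcra 3 and 3 of 28 regions differed (10.7% each), then 1 and 4 of 21 (4.76% and 19.0%). At Tcrb 2 and 0 of 28 differed (7.14% donor Treg only), then 1 and 0 of 21 (4.76%). Ptprc, which encodes CD45, held no differing region within its gene coordinates in either setting. The 20 Mb to either side of it, where a stretch linked to the CD45 allele would lie, had 15 and 8 of 684 regions (2.19% and 1.17%), below the 3.61% and 1.49% of all regions. With equal lengths it had 15 and 16 of 564 (2.66% and 2.84%), beside 3.2% and 2.46%. Without that stretch the counts were 1447 and 594.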

How the data were processed

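ATAC-seq peak lists of 2 donor Treg and 2 host tTreg libraries were compared. Per the labels' protocols, libraries were made by Omni-ATAC from sorted cells. Bowtie2 2.3.3, HOMER 4.10, bedtools and the mm10 build are named in the submitters' processing notes, with no roles. The deposited lists give coordinates, which are the measurement, and a score deposited by the authors that is 1000 for every peak and was not used. Depth is unknown and no read shift is given in the sources used here. Groups follow the sample titles. Nothing says that replicates come from separate animals, so limma's p-values rest on a spread that may be technical.

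Peaks sharing 1 bp or more were merged, and calls were repeated with equal list lengths. In the 8 other libraries, covered bp were counted within the merged region. Covered bp were tested with limma 3.58.1 (R 4.3.3) with Benjamini-Hochberg adjustment over all regions tested; the code was tested on simulated data. Titles number the replicates alike in both groups; the deviations of same-numbered libraries correlated at r = 0.087 over regions, with 2 pairs, and the descriptions give donor Treg other numbers, so the numbers were not taken as pairs. Genes and promoters came from RefSeq tables, where all 248 list genes matched.

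The comparison, the 20 gene lists, the 31 fixed genes and the alternatives were chosen with earlier results of these data known. Named genes are the fixed genes, the 10 with the largest net number of differing regions per direction and setting (ties to the gene with fewer regions), list genes with a net of 2 or more, and genes of regions whose width differed. Some items are not reported here.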

Additional observations from a re-analysis of the deposited data

How the results depend on the processing

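Donor Treg only and host tTreg only counts stayed within 1.5 times of 1462 and 602 with equal list lengths, a 100 bp join, all 12 libraries merged first, and X and Y, the Ptprc stretch or the Aire stretch left out, the last chosen after seeing the data. Without peaks under 300 bp they were 1245 and 302. Leaving out 1 library gave 1747 to 4588 and 895 to 4196. Regions wider in donor Treg and in host tTreg numbered 0 and 0 without centring and with quantile normalization, 3 and 2 with equal lengths, 11 and 5 by the widest peak, and 4 and 1 with regions of 500 bp or more; leaving out 1 library gave 0 to 137 and 0 to 130. With a replicate block, although the numbers do not pair the libraries, they were 170 and 117. Shares in other libraries, with settings chosen after seeing the data, moved with equal lengths to 48.9% (host pTreg) and 89.3% (donor Tconv) of donor Treg only and 75.0% and 44.4% of host tTreg only regions, and without peaks under 300 bp to 72.0%, 92.6%, 83.8% and 45.0%. Net counts (donor minus host) reversed for Inpp4b (1 without peaks under 300 bp), Th1 genes (-1 with equal lengths), Tfh genes (-1 with equal lengths and without peaks under 300 bp) and B cell genes (2 without peaks under 300 bp). Of 325 net counts of named genes under the alternatives, 80 moved, as did 36 of 100 of lists. The causes were not tested. The unknown read depth limits every absent peak.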
